A study of Homo sapiens with 10 samples.

Results

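HEK293T cells kept for 24 h without cysteine were compared with cells kept for the same time in complete medium, gene by gene. HEK293T is a human embryonic kidney line that carries the large T antigen of a tumour virus. The comparison used 2 RNA-seq libraries from cysteine-free medium (0X) and 4 from complete medium (1X), out of 10 libraries in the series; the other 4, from medium with 10X cysteine, entered no comparison here. The genes kept were those with a normalized gene count of 10 or more in 3 or more of the 6 libraries, which left 27360 of the 78894 gene identifiers in the table. Of these, 15224 were protein-coding and 19413 had a gene symbol.

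The study refers its RNA-seq treatment to an earlier protocol without naming which of those it gives. The one with 3 cysteine levels for this line has cells seeded the day before, washed and given new medium on a base that lacks cysteine and methionine, supplied with methionine, a glutamine source, non-essential amino acids and pyruvate, with or without cysteine; another sets ordinary complete medium against a starvation medium with dialyzed serum, so that differences other than cysteine cannot be told apart from it. A single line and a single time point were measured. The labels number the libraries of a group as biological replicates and do not say what was separate between them, so the p-values below measure the spread between these libraries. In bulk RNA, fewer cells with a transcript and fewer transcripts per cell cannot be told apart.

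Cysteine is taken up mainly as its dimer cystine and is used for protein, glutathione, coenzyme A, taurine and the sulfur of iron-sulfur clusters. When an amino acid is missing, uncharged transfer RNA activates a kinase that slows translation and raises the transcription factor ATF4, whose targets supply amino acids. Other programmes that depend on growth and on the load of new protein, such as cytosolic chaperones, ribosome assembly and the proteasome, are run by other factors, among them HSF1 and the MYC family. Of 55 ATF4 targets tested here, 51 rose (92.7%, against 8.34% of all genes) and none fell. The account below is mainly of genes outside this list. A gene that is not on it, such as EIF4EBP1 or INHBE, may still be a target of ATF4, which was not tested.

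The 6 libraries held between 34836014 and 42666557 reads on genes. On the first principal component, which held 72.1% of the variance, the cysteine-free libraries lay at -31.6 and -33.7 and the complete libraries at 16.4, 18.7, 6.58 and 23.5. Complete replicate 3 lay nearest to the cysteine-free side, and on the second component (12.5%) it stood at -18.6 and complete replicate 4 at 13.8. Genes that turn on this library are given below with their values in each library, and no cause of its position was tested. Kidney and HEK293T genes such as VIM and EYA1 were expressed in both groups and did not pass the test, whereas HOXA10 fell slightly (-0.29). Of the neuronal genes known in this line, NEFM (-0.29) and TUBB3 (-0.40) were lower. NEFL (-0.04), ENO2 (-0.06) and INA (0.13) did not pass. The renal factor PAX8 was near 0 in both groups. Of the blood markers reported here, CD3E and HBB were at 0 in all 6 libraries, and PTPRC and LYZ were at or near 0. The renal transcription factor PAX2 was at 366 and 270.5 in the cysteine-free libraries and 127, 121, 179.7 and 105 in the complete libraries. Both cysteine-free libraries were above the 4 complete libraries, and groups were apart in one direction or the other in 48.4% of all genes (log2 fold change 1.26 ± 0.20 SE, adjusted p = 2.65e-04; without cysteine-free replicate 1 it no longer passed, at an adjusted p of 0.0187).

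Removal of cysteine was followed by changes in many genes that were mostly small. In limma's moderated test with Benjamini-Hochberg adjustment over the 27360 genes, 4867 passed an adjusted p of 0.01 (17.8%). Of these, 2283 were higher (8.34%) and 2584 lower (9.44%) in cysteine-free medium. The median log2 fold change of all genes tested was 0.004. At least 2-fold changes were called for 618 genes (2.26%), 424 of them higher (1.55%) and 194 lower (0.709%). Of the genes that fell, 73.3% changed by less than 1.5-fold, against 49.15% of those that rose. The count called dropped to 1647 without cysteine-free replicate 1 and 1439 without cysteine-free replicate 2, which leave 1 library in that group, assumed to vary like the others. Of these, 46.4% and 42.2% were higher. Below, a signed value that a gene changed by, or that stands in parentheses after its name, is its log2 fold change of cysteine-free over complete medium, and a list's median is the median of these. Single genes with the largest changes were chosen from called genes whose groups do not overlap, so this separation was a condition of their choice and not a result. List examples were chosen by their call, level and size of change, so their separation is not a separate result either.

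**Figure D1:**
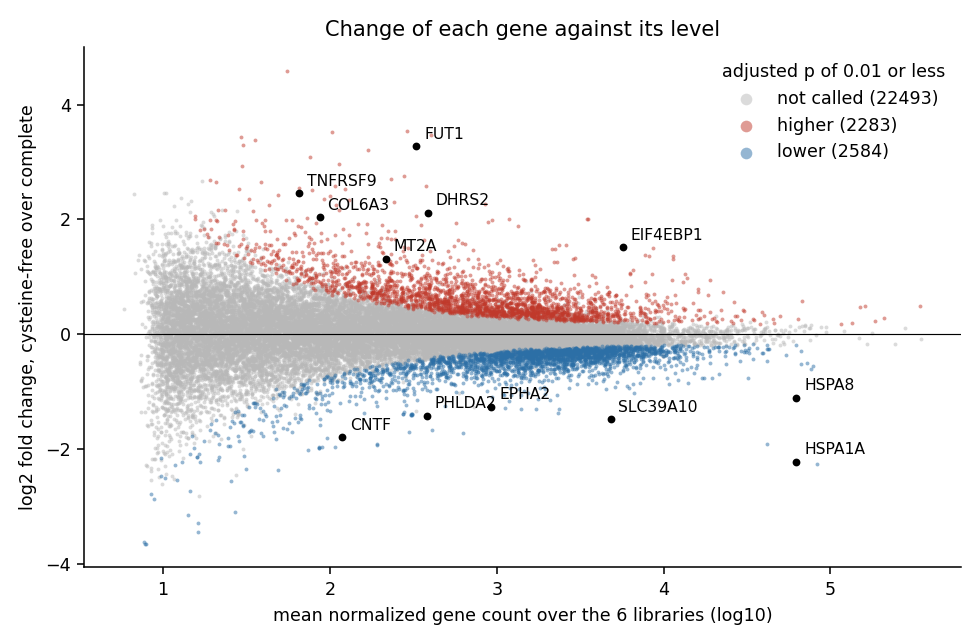
Log2 fold change (cysteine-free over complete) of each of the 27360 genes against its mean normalized gene count over the 6 libraries (log10). Red points are the 2283 genes called higher, blue points the 2584 called lower and grey points the rest; black points are named genes. HSPA1A and HSPA8 lie apart from the other genes at their level, below the zero line at the right.

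The share called lower went up with the level of expression. Among protein-coding genes, 10.9% rose and 14.0% fell. Split into 5 equal groups by mean value, the group of lowest values had 2.96% called lower and 5.52% higher, whereas in the group of highest values 25.8% were called lower and 9.36% higher. This is the share to set beside lists of abundant genes. The share of cysteine codons in the coding sequence moved little with the direction. Its median was 1.85% in genes that rose, 1.91% in genes that fell and 1.9% in genes that did not pass. Across 5 equal groups by cysteine content, from a median of 0.686% to 4.1% of codons, between 10.5% and 11.6% of genes rose and between 13.0% and 15.3% fell. Among the 1614 genes with at least 4% cysteine codons, 10.7% rose and 10.6% fell.

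Cytosolic chaperones were lower nearly throughout. Heat shock proteins of the HSP70, HSP90 and HSP40 families hold unfolded and newly made proteins, and the transcription factor HSF1 sets their level. Of 27 tested members, 21 fell (77.8%, against 9.44% of all genes and 25.8% of the most abundant group) and 1 rose, with a median log2 fold change of -0.55. The member that rose, SERPINH1, is the collagen chaperone of the endoplasmic reticulum, and its call was lost with DESeq2 and without either cysteine-free library. The mRNAs of the factors themselves did not pass, with log2 fold changes of 0.13 for HSF1 and 0.00 for HSF2. Of the whole list, 17 fell without cysteine-free replicate 1 and 17 without cysteine-free replicate 2.

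HSPA1A and HSPA1B, the stress-inducible HSP70 genes, had the largest falls among protein-coding genes whose mean reached 100 in complete medium. They are near-identical copies on chromosome 6 (GRCh38, 31815543 to 31817946 and 31827738 to 31830254), so the split of reads between them is uncertain. HSPA1A was at 18693 and 16477 in the cysteine-free libraries and 87977, 87495, 52287 and 112705 in the complete libraries. The mean was 4.84 times as high in complete medium (log2 fold change -2.23 ± 0.19 SE, adjusted p = 1.11e-06). Complete replicate 3 lay between the cysteine-free libraries and the other complete libraries; without it the log2 fold change was -2.44. HSPA1B was at 24511 and 21405 in the cysteine-free libraries and 117785, 116327, 69915 and 148569.5 in the complete libraries (log2 fold change -2.25 ± 0.18 SE, adjusted p = 8.79e-07).

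The constitutive HSP70, HSPA8, was at 35937 and 34573 in the cysteine-free libraries and 80096, 77731, 69061 and 78253 in the complete libraries. The spread within each group was small beside the gap (log2 fold change -1.11 ± 0.05 SE, adjusted p = 4.43e-09). HSPH1, the exchange factor of HSP70, was at 5939.5 and 5892 in the cysteine-free libraries and 10616, 10201, 9482 and 10027 in the complete libraries (log2 fold change -0.77 ± 0.05 SE, adjusted p = 2.01e-07). HSPE1, the mitochondrial co-chaperonin that is induced with them, was at 3296 and 3131 in the cysteine-free libraries and 6658, 5984, 5801 and 5776 in the complete libraries (log2 fold change -0.91 ± 0.06 SE, adjusted p = 2.01e-07). The partner of HSPE1, HSPD1, fell as well, with a log2 fold change of -0.44. Log2 fold changes were -0.76 for the HSP40 DNAJA1, -0.69 for the HSP70 cofactor BAG3, -0.55 and -0.52 for the 2 cytosolic HSP90 genes, -0.58 for the HSP70-HSP90 adaptor STIP1 and -0.53 for the HSP90 cochaperone CHORDC1. These 6 genes kept their call in each alternative. JMJD6, a hydroxylase chosen after its values were seen, was at 1058 and 926 in the cysteine-free libraries and 2256, 2261, 1838 and 2288 in the complete libraries (log2 fold change -1.12 ± 0.09 SE, adjusted p = 9.45e-07).

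The promoters of these genes are shown because they carry the letters to which HSF1 binds. The windows below are the 250 bases before a transcription start in RefSeq (GRCh38.p14), 5′ to 3′ on the gene's strand, with each GAANNTTC in capitals. For a gene with several starts, the window with the most matches was taken. This motif reads the same on both strands.
HSPA1A (chr6:31815293-31815542, plus strand): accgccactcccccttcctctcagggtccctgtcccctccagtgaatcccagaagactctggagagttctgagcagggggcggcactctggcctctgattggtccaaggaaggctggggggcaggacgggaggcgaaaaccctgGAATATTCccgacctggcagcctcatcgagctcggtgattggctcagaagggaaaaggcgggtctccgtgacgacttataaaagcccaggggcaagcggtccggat
HSPA8 (chr11:123062137-123062386, minus strand): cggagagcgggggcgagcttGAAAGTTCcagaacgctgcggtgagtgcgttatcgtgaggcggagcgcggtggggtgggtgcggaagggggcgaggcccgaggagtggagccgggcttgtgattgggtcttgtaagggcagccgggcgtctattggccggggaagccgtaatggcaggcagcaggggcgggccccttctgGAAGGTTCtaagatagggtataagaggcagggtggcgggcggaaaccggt
CHORDC1 (chr11:90223050-90223299, minus strand): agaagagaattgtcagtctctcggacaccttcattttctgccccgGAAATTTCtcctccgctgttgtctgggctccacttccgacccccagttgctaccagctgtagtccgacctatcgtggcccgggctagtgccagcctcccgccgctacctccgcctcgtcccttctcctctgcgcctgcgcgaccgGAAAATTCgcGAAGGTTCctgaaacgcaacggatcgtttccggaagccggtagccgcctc

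HSPA1A has 1 match, HSPA8 has 2 and CHORDC1 has 3. RefSeq windows were found for 25 of the 27 chaperone genes tested. Of these, 15 had a match in at least 1 of their start sites, SERPINH1 among them, and 38.5% of their 39 windows held the motif, against 5.78% of all 35116 windows. For the chaperonin CCT the share with GAANNTTC was 20% of 10 windows and for ribosome biogenesis 3.51% of 57 windows, and no window of 48 held it for the proteasome. A match describes letters in this window, not binding.

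The chaperonin CCT, a ring-shaped complex that folds actin and tubulin, fell with the chaperones. Of 9 tested genes, 7 fell (77.8%) and 1 rose, with a median of -0.43. CCT8 was at 8305 and 8022 in the cysteine-free libraries and 14966, 14012, 14036 and 13665 in the complete libraries (log2 fold change -0.79 ± 0.05 SE, adjusted p = 7.54e-08). The log2 fold changes of CCT6A, CCT5, TCP1 and CCT4 were -0.61, -0.53, -0.50 and -0.43. CCT6B, a testis form, was the gene called higher, but the call was lost without either cysteine-free library. Actin, a client, fell as well at the mRNA: ACTG1 was at 59273 and 55058 in the cysteine-free libraries and 89716, 84177, 87353 and 86952 in the complete libraries (log2 fold change -0.61 ± 0.04 SE, adjusted p = 2.98e-07), and ACTB changed by -0.37. TUBB4B, a beta-tubulin, changed by -0.51. Of 19 tubulin genes tested, 4 fell (21.1%, near the 25.8% of the most abundant group) and none rose. The 4 became 9 without complete replicate 3 and 7 without complete replicate 4, and fewer when either cysteine-free library was left out.

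The proteasome, which degrades ubiquitinated protein, showed a broad but smaller fall. Of 46 tested genes, 24 fell (52.2%) and none rose, with a median of -0.25. The cap scaffold PSMD1 was at 5356 and 5527 in the cysteine-free libraries and 8667, 8183, 7847 and 8012 in the complete libraries (log2 fold change -0.59 ± 0.05 SE, adjusted p = 2.66e-06). The assembly chaperone PSMG1 changed by -0.55 and the activator PSME4 by -0.53. The count that fell was 11 without cysteine-free replicate 1 and 12 without cysteine-free replicate 2. Of 36 genes of the cullin ligase core and its neddylation machinery, 12 fell (33.3%) and 3 rose (8.33%). In the most abundant group 25.8% fell, and of all protein-coding genes 10.9% rose. Among the risers, CUL9, a large cullin related to CUL7, was at 1663 and 1690.4 in the cysteine-free libraries and 1091, 957, 1195 and 965 in the complete libraries (log2 fold change 0.68 ± 0.09 SE, adjusted p = 7.77e-05). The count of 12 was 1 without cysteine-free replicate 1, 2 without cysteine-free replicate 2, 7 without complete replicate 1 and 6 without complete replicate 2.

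Genes of ribosome assembly were mostly lower, and those of the ribosomal proteins mostly were not. Assembly factors process ribosomal RNA in the nucleolus and join it with ribosomal proteins. Of 58 assembly and RNA polymerase I genes tested, 41 fell (70.7%) and none rose, with a median of -0.3. GRWD1, a histone and ribosome assembly factor, was at 2806 and 3036 in the cysteine-free libraries and 4718, 4632, 4416 and 4567 in the complete libraries (log2 fold change -0.65 ± 0.06 SE, adjusted p = 2.00e-06). UTP18 and UTP20, of the small-subunit processome, changed by -0.65 and -0.63, and URB2, of the large-subunit pathway, by -0.63. The count that fell was 19 without cysteine-free replicate 1 and 23 without cysteine-free replicate 2. Without complete replicate 3, 44 fell and 2 were called higher.

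In the 87 cytosolic ribosomal protein genes the median was 0.042. Of these, 9 were called higher (10.3%) and 4 lower (4.6%), near the 8.34% and 9.44% of all genes. The count higher was 0 without cysteine-free replicate 2, 2 without cysteine-free replicate 1, 3 without complete replicate 2 and 24 under quantile normalization, and that lower was 1 to 7 over the alternatives. RPL36AL, a copy of RPL36A that arose from its mRNA, was at 3548 and 3639 in the cysteine-free libraries and 5154, 4762, 4960.3 and 4609 in the complete libraries (log2 fold change -0.44 ± 0.06 SE, adjusted p = 7.94e-05).

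Of 62 translation factors tested, 18 fell (29.0%, against 25.8% of the most abundant group) and 8 rose (12.9%). EIF4EBP1, which binds the cap-binding protein EIF4E and blocks initiation, was at 9708 and 10448 in the cysteine-free libraries and 3833, 3328, 3743 and 3257 in the complete libraries. Each cysteine-free library had more than double the level of any complete library (log2 fold change 1.51 ± 0.07 SE, adjusted p = 2.47e-09). EIF5, which triggers GTP hydrolysis at the start codon, was at 6678 and 7151 in the cysteine-free libraries and 12993, 12929, 11593 and 13230.4 in the complete libraries (log2 fold change -0.87 ± 0.06 SE, adjusted p = 1.30e-07). The scaffold EIF4G1 and the EIF3 subunit EIF3B changed by -0.47 and -0.56. EIF3CL, a near-identical copy of EIF3C whose reads cannot be told from it with certainty, changed by 0.42. The count of 18 was 8 without cysteine-free replicate 1 and 8 without cysteine-free replicate 2, and that of 8 was 3 without cysteine-free replicate 2.

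Mitochondrial DNA encodes 13 subunits, and the nucleus encodes the rest together with the mitochondrial ribosome and import machinery. Of 13 mitochondrially encoded mRNAs, 6 rose (46.2%) and none fell, with a median of 0.21. MT-CO2, a core subunit of complex IV, was at 185286 and 216659 in the cysteine-free libraries and 151469, 153727, 133693 and 134241 in the complete libraries (log2 fold change 0.49 ± 0.07 SE, adjusted p = 8.71e-05). MT-CYB, of complex III, was at 178857 and 190649 in the cysteine-free libraries and 143134, 142415, 124258 and 125340.3 in the complete libraries (log2 fold change 0.47 ± 0.06 SE, adjusted p = 4.56e-05). MT-CO1 changed by 0.49, a call that was lost under quantile scaling, which had 2 of the 13 lower. The count that rose was 3 without cysteine-free replicate 2. Of all reads, mitochondrial genes took 5.43% ± 0.397 (SD, n = 2) without cysteine, against 4.71% ± 0.25 (SD, n = 4) with it. The difference of 0.726 percentage points had an exact two-sided permutation p of 0.067, the smallest that 15 assignments allow, and it was 0.445 without cysteine-free replicate 2.

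Of 81 nuclear subunits tested, 26 fell (32.1%, near the 25.8% of the most abundant group) and 1 rose, with a median of -0.15. NDUFA8, of complex I, was at 1295 and 1285 in the cysteine-free libraries and 2426, 2070.4, 2145 and 2359 in the complete libraries (log2 fold change -0.80 ± 0.08 SE, adjusted p = 3.14e-06). Cytochrome c, CYCS, changed by -0.51. The count of 26 was 6 without cysteine-free replicate 1 and 9 without cysteine-free replicate 2. Of 78 mitochondrial ribosomal protein genes, 24 fell (30.8%, near the 25.8% of the most abundant group) and 3 rose. MRPL14 was at 1024 and 1037 in the cysteine-free libraries and 1852, 1739, 1798 and 1863 in the complete libraries (log2 fold change -0.81 ± 0.07 SE, adjusted p = 1.11e-06), and MRPS12 changed by -0.76. The count of 24 was 6 without cysteine-free replicate 1 and 9 without cysteine-free replicate 2. Of 31 mitochondrial chaperone, protease and import genes, 13 fell (41.9%) and 2 rose (6.45%). The import pore TOMM40 changed by -0.48, TIMM17A of the inner membrane by -0.49, and GRPEL1, the exchange factor of the mitochondrial HSP70, by -0.61; the count of 13 was 6 without cysteine-free replicate 1 and 8 without cysteine-free replicate 2. MARS2, the mitochondrial methionyl-tRNA synthetase, was at 747 and 809 in the cysteine-free libraries and 1423, 1477, 1247 and 1638 in the complete libraries (log2 fold change -0.89 ± 0.10 SE, adjusted p = 1.17e-05).

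Part of glycolysis and nucleotide synthesis was lower. Of 23 glycolysis genes, 11 fell (47.8%) and 2 rose, with a median of -0.24. PGAM1, which shifts the phosphate of phosphoglycerate, was at 13171 and 13430.3 in the cysteine-free libraries and 23997, 21607, 22790.4 and 21810.3 in the complete libraries (log2 fold change -0.76 ± 0.05 SE, adjusted p = 1.19e-07). LDHA, which makes lactate, was at 15013 and 15641 in the cysteine-free libraries and 26178, 24639.9, 24046 and 23930.4 in the complete libraries (log2 fold change -0.69 ± 0.05 SE, adjusted p = 2.30e-07). PKM changed by -0.46 and PFKFB3, whose product activates phosphofructokinase, by -0.52. The count of 11 was 5 without cysteine-free replicate 1 and 6 without cysteine-free replicate 2. Of 26 purine and pyrimidine genes, 12 fell (46.2%) and 1 rose; IMPDH1, which commits purines to guanine, changed by -0.72, UMPS by -0.42 and NME1 by -0.46. The count of 12 was 3 without cysteine-free replicate 1 and 5 without cysteine-free replicate 2.

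Of 24 tricarboxylic acid cycle genes, 7 fell (29.2%, near the 25.8% of the most abundant group) and 2 rose (8.33%). OGDH was at -0.56, IDH3A at -0.44 and the NADP-linked IDH2 in the other direction at 0.46. The count of 7 was 4 without cysteine-free replicate 1. In serine and folate metabolism 9 of 21 rose (42.9%) and 2 fell, but 6 of these genes are also on the ATF4 list; of the other 15, 3 rose and 2 fell. SLC25A32, the mitochondrial folate carrier, was at 969 and 967 in the cysteine-free libraries and 1643, 1543, 1534 and 1633 in the complete libraries (log2 fold change -0.71 ± 0.07 SE, adjusted p = 5.06e-06). The arginine-synthesis enzyme ASS1 was at 4642 and 4901 in the cysteine-free libraries and 1949, 1797, 1800.0 and 2167 in the complete libraries (log2 fold change 1.31 ± 0.08 SE, adjusted p = 2.98e-08). SLC7A3, an arginine and lysine transporter, was at 2196 and 2542 in the cysteine-free libraries and 568, 598, 595 and 598 in the complete libraries (log2 fold change 2.00 ± 0.08 SE, adjusted p = 7.99e-10). In lipid metabolism the changes were mixed, with 5 of 23 fatty acid genes higher (21.7%) and 6 lower (26.1%, near the 25.8% of the most abundant group). Both counts were smaller when either cysteine-free library was left out. ACACB, an acetyl-CoA carboxylase, changed by 0.72 and the desaturases SCD and SCD5 by 0.39 and -0.75. The sterol regulator SREBF2 changed by 0.39.

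**Figure D2:**
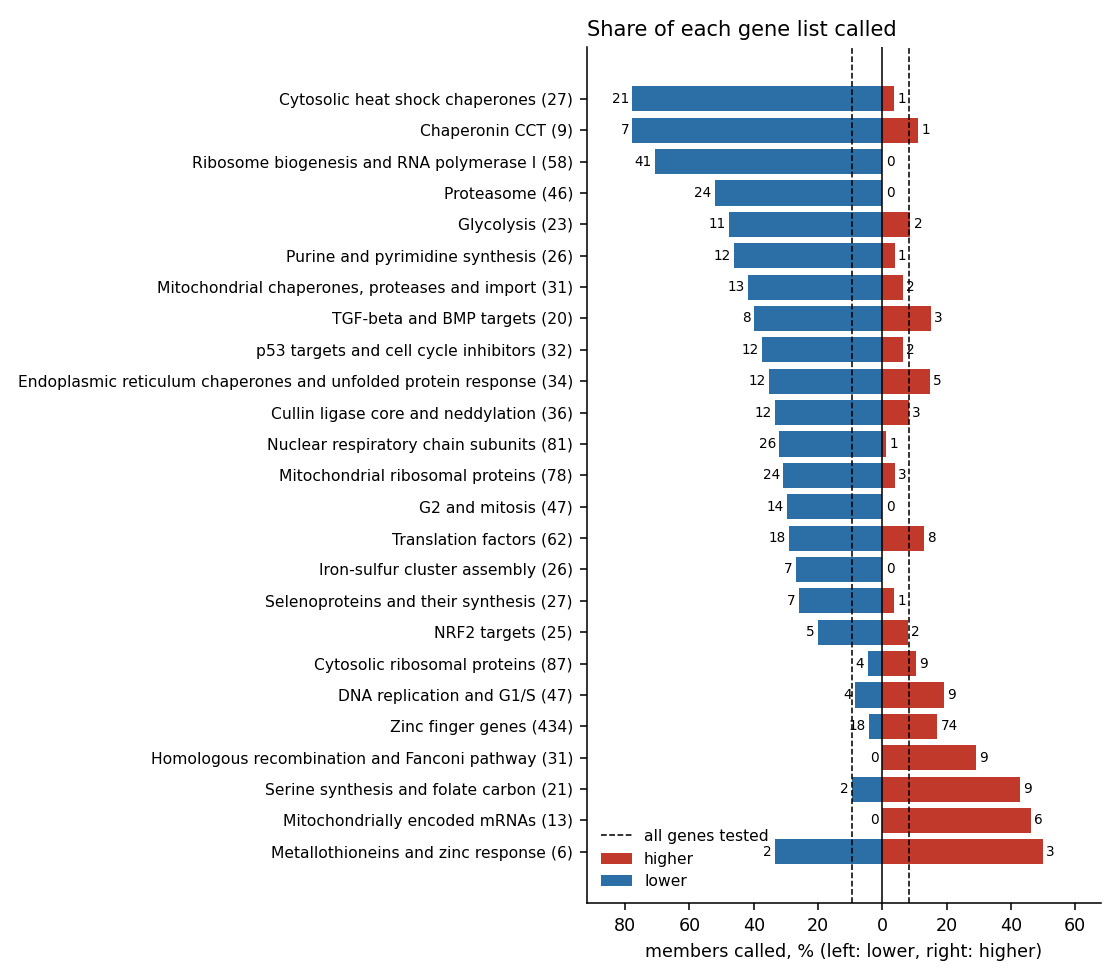
Share of the tested members of 25 gene lists called lower (blue, to the left) or higher (red, to the right) in cysteine-free medium, with the number of members called beside each bar and the number tested in parentheses; the dashed lines mark the shares of all 27360 genes, 9.44% lower and 8.34% higher. The lists are ordered by share lower at the top, from heat shock chaperones (77.8%) and CCT (77.8%) to ribosome biogenesis (70.7%), and by share higher at the bottom.

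Sulfur and redox genes did not move as a block. NRF2, the transcription factor of the electrophile response, drives enzymes of glutathione, thioredoxin and NADPH supply. Of 25 targets tested, 2 rose (8.0%) and 5 fell (20.0%), beside 10.9% and 14.0% of protein-coding genes, with a median of 0.004. The 5 became 3 without complete replicate 1 and 3 without complete replicate 2. Both counts were smaller when either cysteine-free library was left out. NQO1, GCLM and TXNRD1 did not pass, with log2 fold changes of 0.27, 0.13 and -0.19. SRXN1, which repairs oxidized peroxiredoxin, was at 1229 and 1209 in the cysteine-free libraries and 2278, 2243, 1725 and 2514 in the complete libraries (log2 fold change -0.83 ± 0.11 SE, adjusted p = 6.45e-05). PRDX1, a peroxiredoxin, was at 11174 and 10625 in the cysteine-free libraries and 18642, 16901, 17056 and 16676 in the complete libraries (log2 fold change -0.67 ± 0.05 SE, adjusted p = 7.33e-07). Among 26 thioredoxin and peroxiredoxin genes, 7 fell (26.9%, near the 25.8% of the most abundant group) and 3 rose (11.5%). PRDX4 of the endoplasmic reticulum (-0.60) and TXNDC17 (-0.59) were among those that fell. The 3 became 0 without cysteine-free replicate 2.

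Of 25 glutathione genes, 7 rose (28.0%) and 5 fell (20.0%), beside 10.9% and 14.0% of protein-coding genes. GSS, which completes glutathione, was at 3020.4 and 3399 in the cysteine-free libraries and 2064, 2005, 2089 and 2166 in the complete libraries (log2 fold change 0.62 ± 0.07 SE, adjusted p = 1.14e-05). GLO1, which detoxifies methylglyoxal with glutathione, fell (-0.54), and the peroxidase GPX8 of the endoplasmic reticulum rose (0.71). The 7 became 3 without cysteine-free replicate 1 and 3 without cysteine-free replicate 2, and the 5 became 2 without cysteine-free replicate 1, 1 without cysteine-free replicate 2, 3 without complete replicate 1 and 3 without complete replicate 2. Of 27 genes for selenoproteins and their synthesis, 7 fell (25.9%, near the 25.8% of the most abundant group) and 1 rose (3.7%). SELENOI, which makes phosphatidylethanolamine, changed by -0.55. The 7 became 2 without cysteine-free replicate 1 and 3 without cysteine-free replicate 2.

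The taurine transporter SLC6A6 was at 798 and 821 in the cysteine-free libraries and 1696, 1812, 1545 and 1694 in the complete libraries. Complete medium had about double the level in each library (log2 fold change -1.06 ± 0.08 SE, adjusted p = 2.98e-07). The remethylation enzyme MTR, which makes methionine, rose by 0.41, and AMD1, which commits S-adenosylmethionine to polyamines, changed by -0.54. SAT1, which acetylates polyamines, rose by 0.56. SLC5A6, the carrier of pantothenate, from which coenzyme A is made, changed by -0.40. Among 11 coenzyme A genes 2 rose (18.2%) and 4 fell (36.4%), beside 10.9% and 14.0% of protein-coding genes. The 2 became 0 without cysteine-free replicate 1, 0 without cysteine-free replicate 2, 1 without complete replicate 1 and 1 without complete replicate 2, and the 4 became 1 without cysteine-free replicate 1 and 2 without cysteine-free replicate 2.

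Metallothioneins were higher and a zinc importer lower. Metallothioneins are small cysteine-rich proteins that bind zinc and copper, and the zinc sensor MTF1 drives them. The mRNA of MTF1 itself was called lower (log2 fold change -0.44, adjusted p = 7.19e-04), a call that was lost without either cysteine-free library. Of 12 genes listed for these and for zinc transport, 6 passed the filter on low values, of which 3 rose and 2 fell, with a median of 0.57 that became -0.062 over the 5 members without exon overlap. MT2A was at 410.0 and 301 in the cysteine-free libraries and 158, 109, 197 and 119 in the complete libraries (log2 fold change 1.31 ± 0.21 SE, adjusted p = 3.50e-04). MT1X was at 355 and 333 in the cysteine-free libraries and 131, 149, 185 and 70.2 in the complete libraries (log2 fold change 1.44 ± 0.27 SE, adjusted p = 0.00101). Without cysteine-free replicate 1, no member of the list was called higher, and without cysteine-free replicate 2, 1 was. The adjusted p of MT2A was 0.022 and 0.00411 in these 2 cases, and that of MT1X was 0.026 and 0.0202. SLC39A10, which imports zinc, was at 2257 and 2099 in the cysteine-free libraries and 6191, 6869.7, 4844 and 6625 in the complete libraries, with complete replicate 3 the lowest of the complete libraries (log2 fold change -1.48 ± 0.10 SE, adjusted p = 1.91e-07). The zinc exporter SLC30A1 did not pass (log2 fold change -0.06).

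The 2 metallothionein promoters are shown for the zinc-response letters TGCACNC and TGCGCNC. The windows are again 250 bases before a start in RefSeq (GRCh38.p14), on the plus strand, with matches on either strand in capitals. As before, the window with the most matches was taken for a gene with several starts.
MT2A (chr16:56608334-56608583): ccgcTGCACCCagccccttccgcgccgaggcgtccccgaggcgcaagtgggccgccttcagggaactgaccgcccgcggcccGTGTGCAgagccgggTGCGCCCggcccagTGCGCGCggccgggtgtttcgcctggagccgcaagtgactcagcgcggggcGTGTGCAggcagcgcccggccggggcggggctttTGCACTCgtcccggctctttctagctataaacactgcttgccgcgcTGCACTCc
MT1X (chr16:56682220-56682469): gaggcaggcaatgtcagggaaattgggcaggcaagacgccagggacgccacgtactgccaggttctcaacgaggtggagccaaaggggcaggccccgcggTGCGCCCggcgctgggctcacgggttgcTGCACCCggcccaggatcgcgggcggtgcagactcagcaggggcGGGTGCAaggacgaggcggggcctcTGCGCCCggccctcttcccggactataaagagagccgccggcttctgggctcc

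MT2A held 7 matches and MT1X held 4, where 24.8% of all windows held at least 1. The third gene of the list with a match was SLC30A1, which did not pass the test. Iron genes were mixed, with 3 of 16 uptake and storage genes higher (18.8%) and 4 lower (25.0%). Of protein-coding genes 10.9% rose, and in the most abundant group 25.8% fell. Both counts were smaller when either cysteine-free library was left out. FTH1, the ferritin heavy chain, rose (0.43), and TFRC, the transferrin receptor, was at 8966 and 9915 in the cysteine-free libraries and 14455, 15277, 13984 and 14696 in the complete libraries (log2 fold change -0.63 ± 0.05 SE, adjusted p = 1.44e-06). Of 26 iron-sulfur assembly genes 7 fell (26.9%, near the 25.8% of the most abundant group) and none rose. Among those that fell was CIAPIN1 (log2 fold change -0.67 ± 0.06 SE, adjusted p = 3.60e-06). The 7 became 3 without complete replicate 1 and 4 without complete replicate 2, and fewer still when either cysteine-free library was left out.

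In the endoplasmic reticulum, chaperones and factors of the unfolded protein response moved apart. Of 34 genes, 5 rose (14.7%) and 12 fell (35.3%), beside 10.9% and 14.0% of protein-coding genes. Those that rose were XBP1, the sensors ERN1 and ATF6, and DERL3 and HERPUD1 of protein disposal, of which HERPUD1 is also on the ATF4 list. Those that fell included the chaperones HSPA5 and HSP90B1 and 4 disulfide isomerases. XBP1, the factor of the IRE1 branch, was at 10334 and 10994 in the cysteine-free libraries and 7036, 7244, 6718 and 7078 in the complete libraries (log2 fold change 0.60 ± 0.05 SE, adjusted p = 1.61e-06). SDF2L1, a cofactor of the chaperone BiP, was at 884 and 887 in the cysteine-free libraries and 1441, 1386, 1481 and 1519.8 in the complete libraries (log2 fold change -0.72 ± 0.07 SE, adjusted p = 6.45e-06). PDIA6, a disulfide isomerase, and SEC24D, of the vesicle coat, changed by -0.41 and -0.64. The count of 5 was 1 without cysteine-free replicate 2, and that of 12 was 6 without cysteine-free replicate 1 and 5 without cysteine-free replicate 2.

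Of 47 genes of DNA replication and the G1/S step, 9 rose (19.1%) and 4 fell (8.51%), beside 10.9% and 14.0% of protein-coding genes. Of 47 genes of G2 and mitosis none rose and 14 fell (29.8%, near the 25.8% of the most abundant group). The difference between these lists was not tested. CCND1, the cyclin of early G1, was at 642 and 506 in the cysteine-free libraries and 1417, 1302, 1528 and 1323 in the complete libraries (log2 fold change -1.28 ± 0.10 SE, adjusted p = 5.24e-07). LIG1, the replicative ligase, was at 5698 and 5638 in the cysteine-free libraries and 3572, 3827, 3832 and 3658 in the complete libraries (log2 fold change 0.61 ± 0.06 SE, adjusted p = 2.53e-06). CDC20, the activator of the anaphase-promoting complex, was at 4107 and 4065 in the cysteine-free libraries and 6162, 5926, 5661 and 5856 in the complete libraries (log2 fold change -0.53 ± 0.05 SE, adjusted p = 7.32e-06), and E2F2, a factor of S phase entry, rose by 0.60. The 9 became 4 without cysteine-free replicate 1 and 3 without cysteine-free replicate 2, and the 14 became 3 without cysteine-free replicate 1 and 5 without cysteine-free replicate 2. Of 31 genes of homologous recombination and the Fanconi pathway 9 rose (29.0%, against 10.9% of protein-coding genes) and none fell. Among the 9 were EXO1 (0.53) and BRCA1 (0.41). The 9 became 5 without cysteine-free replicate 1, 2 without cysteine-free replicate 2 and 5 without complete replicate 2. Of 69 histone genes of S phase, 37 passed the filter on low values. H4C14 and H4C15, near-identical copies, were the 2 called higher (H4C14 by 1.10).

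Targets of p53 were in part lower; in this line large T binds p53. Of 32 p53 targets and cell cycle inhibitors, 12 fell (37.5%) and 2 rose, with a median of -0.36. BTG2, an antiproliferative factor, was at 606 and 456 in the cysteine-free libraries and 1223, 1165, 864 and 1273 in the complete libraries (log2 fold change -1.09 ± 0.14 SE, adjusted p = 5.28e-05). AEN, an exonuclease, was at 3176 and 2942 in the cysteine-free libraries and 5149, 4959, 4059.8 and 5685 in the complete libraries (log2 fold change -0.69 ± 0.10 SE, adjusted p = 1.07e-04). In both, complete replicate 3 was the lowest of the complete libraries, and for the list as a whole its median lay at -0.211 on the log2 scale relative to the mean of the complete group, close to the cysteine-free libraries at -0.271 and -0.349. The 12 became 5 without cysteine-free replicate 1, 2 without cysteine-free replicate 2 and 7 without complete replicate 1. In the BCL2 family, 1 of 17 genes rose (5.88%) and 4 fell (23.5%, against 14.0% of protein-coding genes). HRK, a death-promoting member, was at 926 and 922 in the cysteine-free libraries and 433, 429, 551 and 424 in the complete libraries (log2 fold change 1.02 ± 0.11 SE, adjusted p = 1.40e-05). MCL1, a protective one, changed by -0.43. The death-promoting BAX (-0.68) and BAK1 (-0.43) fell as well, and the call of BAX was lost with DESeq2.

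EPHA2, an ephrin receptor, was at 498 and 457 in the cysteine-free libraries and 1078, 1239, 972 and 1334 in the complete libraries (log2 fold change -1.26 ± 0.11 SE, adjusted p = 1.83e-06), and SPRY1, an inhibitor of ERK signalling, changed by -0.66. Both are on the list of 14 ERK feedback genes, of which no other passed (14.3% lower, near the 14.0% of protein-coding genes). Of 20 NOTCH pathway genes 5 fell (25.0%, against 14.0% of protein-coding genes) and none rose. NOTCH3 was at 1259.7 and 1146 in the cysteine-free libraries and 2192, 2317, 2070.0 and 2582 in the complete libraries (log2 fold change -0.93 ± 0.08 SE, adjusted p = 2.27e-06). The ligand JAG2 changed by -0.74, and NOTCH1 by -0.55. The 5 became 3 without cysteine-free replicate 1, 3 without cysteine-free replicate 2 and 3 without complete replicate 1. Of 20 TGF-beta and BMP genes 8 fell (40.0%) and 3 rose; NOG, which blocks BMPs, was at 27.3 and 32.7 in the cysteine-free libraries and 81.9, 74.1, 81.2 and 103 in the complete libraries (log2 fold change -1.47 ± 0.23 SE, adjusted p = 2.94e-04). The 8 became 4 without cysteine-free replicate 2. ZNRF3, a WNT feedback ligase, changed by -0.45. Of 34 immediate early genes 3 rose (8.82%) and 7 fell (20.6%), beside 10.9% and 14.0% of protein-coding genes. The 3 became 6 without complete replicate 3. The 7 became 4 without complete replicate 1, and fewer when either cysteine-free library was left out. Without cysteine-free replicate 1, 4 were higher and 1 was lower. EGR1 was at 1209.5 and 1309.8 in the cysteine-free libraries and 591, 589, 559 and 425 in the complete libraries (log2 fold change 1.23 ± 0.12 SE, adjusted p = 4.79e-06). AJUBA, a LIM protein of the Hippo pathway, rose by 1.11. It was the only 1 called higher of 21 YAP and SRF targets, of which 6 fell (28.6%, against 14.0% of protein-coding genes), with a median of -0.165.

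**Figure D3:**
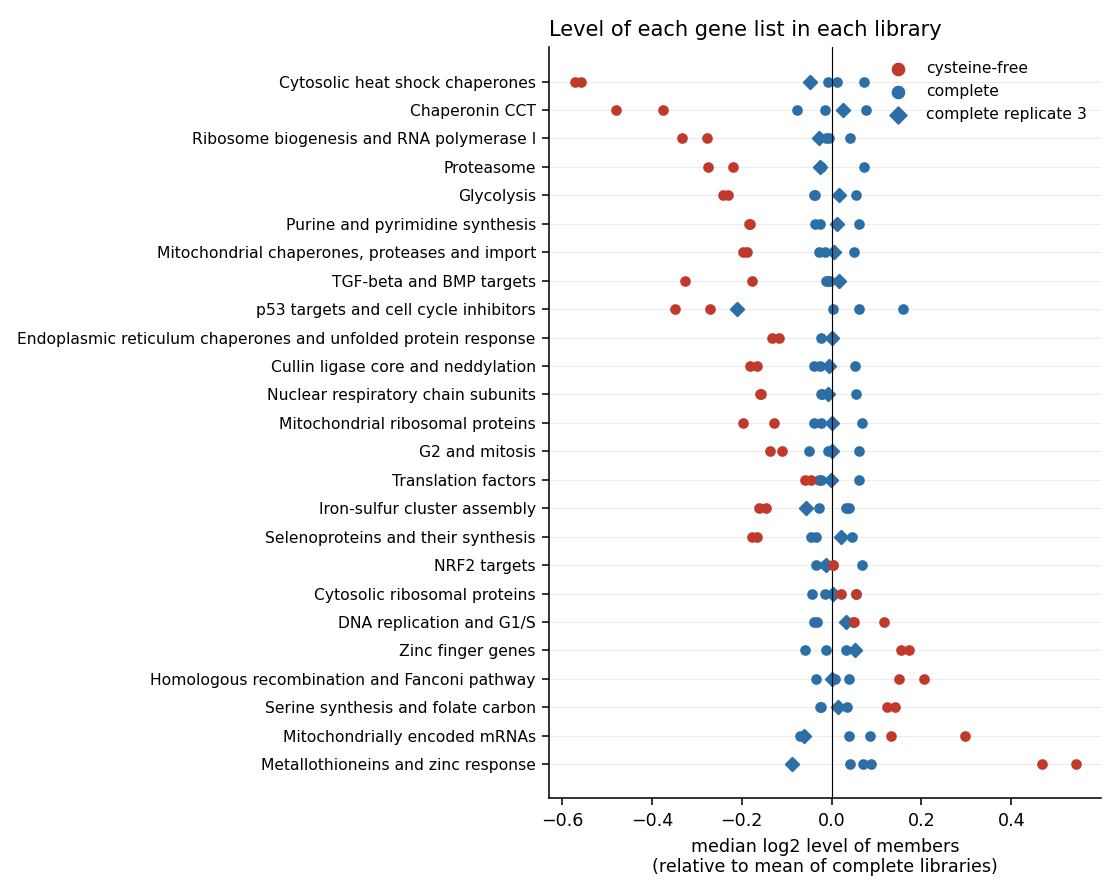
Level of 25 gene lists in each library, as the median over members of log2(value + 1) relative to the mean of the complete libraries; red circles are cysteine-free libraries, blue circles complete libraries and blue diamonds complete replicate 3. For p53 targets complete replicate 3 lies at -0.211, near the cysteine-free libraries, and for heat shock chaperones it lies near 0 beside the other complete libraries.

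Transporters and trafficking genes moved both ways. Of 262 solute carriers tested, 31 rose (11.8%) and 43 fell (16.4%), beside 10.9% and 14.0% of protein-coding genes. Without the 8 tested carriers that are ATF4 targets, 24 of 254 rose. The 31 became 19 without cysteine-free replicate 1 and 16 without cysteine-free replicate 2, and the 43 became 21 without cysteine-free replicate 1 and 20 without cysteine-free replicate 2. SLC45A3, a carrier of the prostate better known for gene fusions, was at 263 and 268 in the cysteine-free libraries and 477, 552, 421 and 631 in the complete libraries (log2 fold change -0.95 ± 0.14 SE, adjusted p = 1.47e-04). Of 38 kinesins, the motors that walk along microtubules, 7 rose (18.4%) and 5 fell (13.2%), beside 10.9% and 14.0% of protein-coding genes. The neuronal cargo motors KIF1A and KIF5C changed by 0.57 and -0.56, the ciliary KIF17 by 0.81 and KIF20A, of mitosis, by -0.49. The 7 became 2 without cysteine-free replicate 1 and 2 without cysteine-free replicate 2, and the 5 became 3 without cysteine-free replicate 1 and 3 without cysteine-free replicate 2. Of 57 RAB GTPases, the switches of vesicle traffic, 3 rose (5.26%) and 10 fell (17.5%, near the 14.0% of protein-coding genes). RAB3B was at -0.72, RAB8A at -0.52 and RAB35 at -0.55. The 10 became 4 without cysteine-free replicate 1, 5 without cysteine-free replicate 2 and 16 without complete replicate 3. Of 18 circadian clock genes, 3 rose (16.7%) and 3 fell (16.7%), beside 10.9% and 14.0% of protein-coding genes. The circadian repressor CRY1 was at 1246 and 1385 in the cysteine-free libraries and 2017, 1933, 1941 and 1833 in the complete libraries (log2 fold change -0.55 ± 0.07 SE, adjusted p = 5.46e-05).

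The largest single rises outside the ATF4 list, among abundant enough genes (a mean that reached 100 in the higher medium), are given next. Some belong to lists above, such as INHBE to the TGF-beta and BMP genes and SLCO2A1 to the solute carriers. GDAP1L1, a relative of a mitochondrial fission gene, was at 259.7 and 270.5 in the cysteine-free libraries and 28.4, 17.3, 27.4 and 17.6 in the complete libraries (log2 fold change 3.53 ± 0.27 SE, adjusted p = 5.24e-07). FUT1, which makes the blood group H antigen, was at 789 and 845 in the cysteine-free libraries and 89.3, 58.1, 81.2 and 116 in the complete libraries, a mean 9.48 times as high without cysteine (log2 fold change 3.27 ± 0.21 SE, adjusted p = 7.54e-08). INHBE, a liver activin subunit, was at 852 and 845 in the cysteine-free libraries and 125, 133, 127 and 188 in the complete libraries (log2 fold change 2.58 ± 0.16 SE, adjusted p = 5.10e-08).

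The prostaglandin transporter SLCO2A1 was at 241 and 239 in the cysteine-free libraries and 50.4, 32.1, 49.8 and 29.6 in the complete libraries (log2 fold change 2.58 ± 0.25 SE, adjusted p = 4.26e-06). TNFRSF9, a costimulatory receptor better known in T cells, was at 147 and 137 in the cysteine-free libraries and 25.2, 43.2, 18.3 and 19.8 in the complete libraries (log2 fold change 2.46 ± 0.32 SE, adjusted p = 6.27e-05). The cytokine receptor IL21R was at 151 and 138 in the cysteine-free libraries and 16.8, 27.2, 16.2 and 43.9 in the complete libraries (log2 fold change 2.55 ± 0.35 SE, adjusted p = 9.96e-05). CD3E, the T cell marker, was at 0 in all 6 libraries. NDUFA4L2 was at 223 and 232 in the cysteine-free libraries and 29.4, 69.2, 57.9 and 40.6 in the complete libraries (log2 fold change 2.26 ± 0.28 SE, adjusted p = 4.06e-05). DHRS2, a dehydrogenase, was at 749 and 827 in the cysteine-free libraries and 228, 145, 203 and 158 in the complete libraries (log2 fold change 2.12 ± 0.16 SE, adjusted p = 4.95e-07). RAPGEF3, an exchange factor that senses cAMP, was at 644 and 691 in the cysteine-free libraries and 131, 172, 158 and 177 in the complete libraries (log2 fold change 2.07 ± 0.14 SE, adjusted p = 1.32e-07). The collagen COL6A3 was at 199 and 153 in the cysteine-free libraries and 37.8, 44.5, 54.8 and 32.9 in the complete libraries (log2 fold change 2.04 ± 0.25 SE, adjusted p = 2.95e-05). In its list, 9 of 48 collagen and laminin genes fell (18.8%, against 14.0% of protein-coding genes) and 1 rose (2.08%).

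Among collagens that fell, COL18A1 was at 2268 and 2324 in the cysteine-free libraries and 3967, 4156, 4143 and 4429 in the complete libraries (log2 fold change -0.86 ± 0.06 SE, adjusted p = 2.01e-07), and COL4A2 and COL2A1 changed by -0.59 and -0.72; the 9 became 5 without cysteine-free replicate 1. ALPK2, TMEM154, IKZF2, ZNF619 and FES also rose at least 4-fold, with log2 fold changes of 3.21, 2.36, 2.40, 2.30 and 2.02. The call of IKZF2 was lost without cysteine-free replicate 2 (adjusted p = 0.0167). That of FES was lost without either cysteine-free library, at 0.0113 and 0.0188, and so was that of ZNF619, at 0.0158 and 0.0183, which DESeq2 did not call either.

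**Figure D4:**
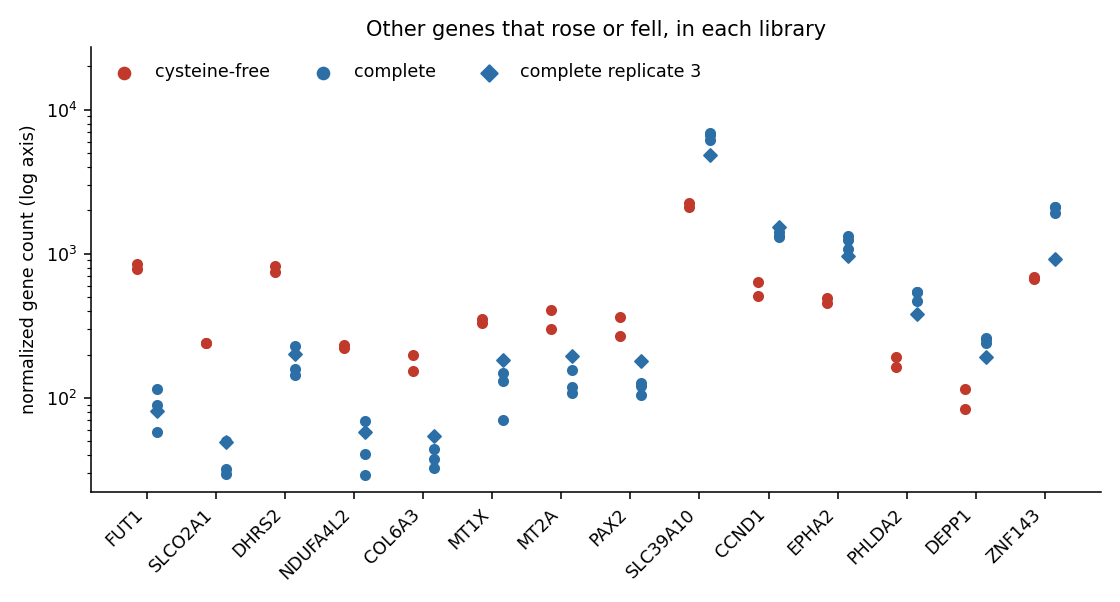
Normalized gene count (log axis) of 14 other genes in each library, drawn as in the plot of chaperone genes: red circles cysteine-free, blue complete, diamond complete replicate 3. The cysteine-free values lie above the complete values from FUT1 to PAX2 and below them from SLC39A10 to ZNF143, and ZNF143 in complete replicate 3 lies at 919, between the groups.

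Among the genes that fell, CNTF, a neurotrophic cytokine, was at 49 and 39.3 in the cysteine-free libraries and 179, 151, 129 and 165 in the complete libraries (log2 fold change -1.79 ± 0.19 SE, adjusted p = 1.17e-05). TNFRSF10D, a decoy receptor for TRAIL, was at 219.8 and 263 in the cysteine-free libraries and 799, 802, 533 and 1138 in the complete libraries (log2 fold change -1.71 ± 0.20 SE, adjusted p = 2.15e-05). PHLDA2, an imprinted gene of growth, was at 194 and 164 in the cysteine-free libraries and 544, 469, 381 and 542 in the complete libraries (log2 fold change -1.42 ± 0.15 SE, adjusted p = 6.88e-06). NKX1-2, AOC3, DEPP1 and SHISA2 fell by at least 2-fold, with log2 fold changes of -1.36, -1.31, -1.25 and -1.24. ZNF143, a transcription factor of small RNA and housekeeping genes, was at 674 and 686 in the cysteine-free libraries and 2108, 1933, 919 and 2099 in the complete libraries. It was called lower (log2 fold change -1.30 ± 0.24 SE, adjusted p = 7.97e-04), with an adjusted p of 0.0197 without cysteine-free replicate 1 and 0.0192 without cysteine-free replicate 2, and its log2 fold change was -1.59 without complete replicate 3. ZNF341, a zinc finger gene, was at 148 and 171 in the cysteine-free libraries and 552, 610.2, 281 and 694 in the complete libraries (log2 fold change -1.66 ± 0.25 SE, adjusted p = 1.88e-04). CRIP3, a LIM protein, was at 23.9 and 50.2 in the cysteine-free libraries and 130.2, 125, 55.8 and 138 in the complete libraries and lost its call without cysteine-free replicate 1 and without complete replicate 1 or 2.

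Of 434 zinc finger genes tested, 74 rose (17.1%) and 18 fell (4.15%), beside 10.9% and 14.0% of protein-coding genes. The list's median was 0.16. Among protein-coding genes with a mean value of 174 to 714, 14.8% rose and 8.24% fell. Whether the zinc finger list differs from other genes of its level was not tested. The count that rose moved with single libraries, to 17 without cysteine-free replicate 1, 10 without cysteine-free replicate 2, 47 without complete replicate 1, 39 without complete replicate 2 and 117 without complete replicate 3. The count that fell moved to 6 without cysteine-free replicate 1, 7 without cysteine-free replicate 2, 10 without complete replicate 1, 11 without complete replicate 2 and 31 without complete replicate 3. Long noncoding RNAs had a median of 0.067 over 6276 genes, with 6.26% higher and 3.66% lower. VLDLR-AS1 was at 257 and 286 in the cysteine-free libraries and 31.5, 39.5, 42.6 and 25.2 in the complete libraries (log2 fold change 2.96 ± 0.24 SE, adjusted p = 8.79e-07). NHSL1-AS1 was at 1757 and 1853 in the cysteine-free libraries and 412, 368.1, 334 and 388 in the complete libraries (log2 fold change 2.27 ± 0.10 SE, adjusted p = 1.28e-09). SNHG32, which lies on chromosome 6 between 31834608 and 31839766, just beyond HSPA1B, was at 14723 and 13792 in the cysteine-free libraries and 58448, 57199, 34414 and 72645 in the complete libraries (log2 fold change -1.92 ± 0.18 SE, adjusted p = 3.30e-06), and its order of libraries is that of HSPA1A. The pseudogene ASNSP1 rose under both of its identifiers, and reads of its parent ASNS cannot be told apart from it with certainty. The near-identical CTBP2P9 and CTBP2P10 fell, with log2 fold changes of -1.92 and -1.92.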

How the data were processed

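RNA of HEK293T cells after 24 h in cysteine-free or complete medium was sequenced. Per the labels, reads were mapped to GRCh38 with STAR 2.7.10b and counted with HTSeq, and DESeq2 with R 4.3.3 was used; the study's methods name featureCounts for the counting, so the counter is uncertain. The study's methods name a directional library kit and say that reads that fall on several genes were dropped; the strand setting of the counting is not given in the sources used here, so values of genes with shared exons are less certain. The deposited values are a signal, namely reads per gene divided by the library's size factor ("normalized gene count"). Dividing by the smallest step of each library gave whole reads for 100% of values at a tolerance of 0.01, from which the read totals were taken (34836014 to 42666557 reads on genes). Libraries of a group differed by more than sampling noise (chi-square per degree of freedom 3.54 to 14.7).

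The genes tested had a value that reached 10 in at least 3 of the 6 libraries. They were tested with limma 3.58.1 (trend, two-sided) on log2(value + 1), with no covariate, and were called at a Benjamini-Hochberg adjusted p of 0.01 over the 27360 genes. Log2 fold changes are on this scale, which understates changes of low genes; every adjusted p in the text is limma's unless another tool is named. Alternatives were count tests of the recovered reads (edgeR 4.0.16, DESeq2 1.42.0), other scalings, pseudocounts, filters and thresholds, the replicate number as a block and each library left out. Scripts ran in Python 3.11.15 and were tested on simulated data. Gene symbols came from GENCODE 44, which holds 61463 of the 78894 identifiers. Promoter windows are those of RefSeq, and cysteine codons were counted in coding sequences.

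Gene lists are described by the number of members called and the median, beside the share of all genes called, with no set test. Single genes were named from those called without overlap of groups and a mean that reached 100 in the higher medium (15 protein-coding genes in each direction outside the ATF4 list, 5 noncoding). Added to these were up to 4 called members of each list in each direction with a mean that reached 50, and members needed to say what a list holds. The lists, this rule and the members were chosen with earlier results of these data known, and the genes in the figures and some named list members and 3 lists in the closing section after their values were seen. The 4 libraries with excess cysteine were left out, except in 1 fit over all 3 media. The study's legend gives another number of replicates than the 2 and 4 libraries analysed here. Some marker genes are not reported here.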

Additional observations from a re-analysis of the deposited data

Results flagged for a closer look

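In 112 groups of 4 complete libraries (list medians and values of named genes), 11 had a library that stood apart by Dixon's criterion, where chance gives about 6. List medians are log2 levels relative to the mean of the complete libraries. Complete replicate 1 stood highest for the thioredoxin and peroxiredoxin system at 0.069 (others -0.027 to -0.014), for the proteasome at 0.072 (others -0.026 to -0.023) and for the pentose phosphate pathway at 0.035 (others -0.017 to -0.01), and lowest for long intergenic noncoding RNAs at -0.021 (others 0.023 to 0.032). Complete replicate 3 stood highest for the NOTCH pathway at 0.129 (others -0.012 to -0.005), and lowest for lipid peroxide defence at -0.057 (others 0.012 to 0.019) and for YAP and SRF targets at -0.046 (others -0.003 to 0.004). Complete replicate 4 stood lowest for endoplasmic reticulum chaperones at -0.024 (others 0 to 0.002). Among genes, INHBE was highest in complete replicate 4 at 187.6, where the others lay between 125 and 133.4. In complete replicate 3, CRIP3 was lowest at 55.84 (others 124.8 to 138.3) and ZNF143 lowest at 918.8 (others 1933 to 2108).

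In the libraries with excess cysteine, which entered no comparison, 187 genes had a value of 10 or more in all 4 and under 10 in each of the other 6 libraries. The excess libraries held 37195926 to 61654861 reads on genes, with a mitochondrial share of 0.117% to 0.146% against 4.51% to 5.71% in the other 6, and whether the 187 genes come from cysteine or from how these libraries were made cannot be told apart.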

How the results depend on the processing

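No call of the 441 genes named by the rule turned its direction in the alternatives run for them. The medians of 19 gene lists took both signs over their alternatives, mostly lists with a median near 0; that of protocadherins and cadherins went from 0.319 to -0.287 over genes without exon overlap, and that of the metallothionein list from 0.57 to -0.062. The 4867 genes called became 1961 (878 higher, 1083 lower) among the 10906 genes without exon overlap, a smaller set, 8170 at an adjusted p of 0.05 and 618 with a 2-fold limit; the 618 genes past 2-fold became 266 without exon overlap and 992 at an adjusted p of 0.05. Leaving out 1 library gave 1439 to 6853 genes called (lowest without cysteine-free replicate 2, highest without complete replicate 3) and 289 to 898 past 2-fold. The other alternatives gave 4292 to 6553 genes called and 428 to 871 past 2-fold. The share called higher was 46.9% as reported, 50.2% with edgeR and 52.3% with equal totals; past 2-fold it was 68.6% as reported and 58.8% with quantile normalization. Of 441 genes named by the rule, 205 kept their call in each alternative; calls were lost for 186 without cysteine-free replicate 1, 212 without cysteine-free replicate 2, 73 and 83 without complete replicates 1 and 2, and at most 23 in any other. The difference in mitochondrial share ran from 0.445 to 1.01 percentage points with 1 library left out.

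Replicate numbers 1 and 2 occur in both groups, but deviations of same-numbered libraries were hardly correlated (-0.0565 and 0.0133), so the numbers were not taken as a pairing. With the replicate block 6553 genes were called (3152 higher, 3401 lower), 871 past 2-fold, 7 of the named calls were lost, and mitochondrially encoded mRNAs called higher went from 6 to 3 of 13.

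The cysteine-free group has 2 libraries, and leaving out either of them lost more of the named calls than any other alternative.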

Other observations

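Families chosen after single genes had been seen are given as values only. Cilium genes were taken by symbol pattern (intraflagellar transport, BBS, CFAP, axonemal dynein, tubulin ligase and centrosomal CEP families). Of 153 members, 36 were higher (23.5%, against 10.9% of protein-coding genes) and 6 lower, with a median log2 fold change of 0.205. TTLL1, a tubulin glutamylase, was at 473 and 475 in the cysteine-free libraries and 223, 162, 187 and 201 in the complete libraries (log2 fold change 1.30 ± 0.14 SE, adjusted p = 1.00e-05). CLUAP1, of intraflagellar transport, was at 1269.9 and 1286 in the cysteine-free libraries and 491, 469, 721 and 417 in the complete libraries (log2 fold change 1.32 ± 0.16 SE, adjusted p = 2.56e-05). The 36 became 14 without cysteine-free replicate 1 and 10 without cysteine-free replicate 2.

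Of 54 transfer RNA modification and processing genes, 22 fell (40.7%) and 2 rose. WDR4, of the tRNA methyltransferase, was at 912 and 905 in the cysteine-free libraries and 1938, 1879, 1727 and 1828 in the complete libraries (log2 fold change -1.02 ± 0.07 SE, adjusted p = 2.01e-07). NSUN2, a cytosine methyltransferase, was at 3795 and 3869 in the cysteine-free libraries and 7195, 7623, 6603 and 7263 in the complete libraries (log2 fold change -0.90 ± 0.06 SE, adjusted p = 1.19e-07). The 22 became 7 without cysteine-free replicate 1, 8 without cysteine-free replicate 2, 13 without complete replicate 1 and 14 without complete replicate 2. Of 30 genes that maintain mitochondrial DNA and RNA, 12 fell (40.0%) and none rose, among them TWNK, the mitochondrial helicase, at 2178 and 2215 in the cysteine-free libraries and 3683, 3238, 3196 and 3315 in the complete libraries (log2 fold change -0.61 ± 0.07 SE, adjusted p = 1.37e-05), and FASTKD5, of mitochondrial RNA processing, at 644 and 629 in the cysteine-free libraries and 1360.2, 1334, 1196 and 1383 in the complete libraries (log2 fold change -1.05 ± 0.08 SE, adjusted p = 5.54e-07). The 12 became 6 without cysteine-free replicate 1 and 6 without cysteine-free replicate 2. The gap junction gene GJA1 was at 1610.5 and 1773 in the cysteine-free libraries and 3391, 3316, 3082 and 3162 in the complete libraries (log2 fold change -0.94 ± 0.07 SE, adjusted p = 2.15e-07). The neuronal pentraxin NPTX1 was at 1196 and 1124 in the cysteine-free libraries and 2385, 2597, 2420.3 and 2820.1 in the complete libraries (log2 fold change -1.14 ± 0.08 SE, adjusted p = 1.28e-07).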
